A study of Triticum aestivum with 6 samples.

Results

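The genes described here are 4 grain dormancy genes of hexaploid wheat, chosen by identifier from the 127196 genes of the deposited table. They are the VIVIPAROUS1 (VP1) homoeologs TraesCS3A01G417300 (VP1-3A), TraesCS3B01G452200 (VP1-3B) and TraesCS3D01G412800 (VP1-3D), and MOTHER OF FT AND TFL1 on chromosome 3A, TraesCS3A01G006600 (MFT-3A). Their names were taken with the identifiers, since the table itself gives none. All 4 were listed above 0 in all 6 libraries and had a mean of at least 0.5 FPKM, the level required for the test across genes.

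The libraries were made from field-grown grains of the winter wheat cultivar Zhoumai36, collected 25 days after anthesis. The inner endosperm (IE, 3 libraries) is the central zone of both lobes in the middle section of the grain, cut out by hand after the pericarp was removed. The remaining endosperm (RE, 3 libraries) is the rest of that section and mixes living aleurone with starchy endosperm, so it does not measure the aleurone alone. The paper describes libraries of both regions under low and high nitrogen supply, more than are used here. The labels give the region and the replicate number but not the nitrogen supply, which was therefore left unassigned in both regions. Whether the libraries come from a single nitrogen level or a mix is thus not known.

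VP1 is a transcription factor with a B3 DNA-binding domain and the cereal counterpart of ABI3 of Arabidopsis. In the response to abscisic acid it switches on seed maturation genes, and in maize and barley it also holds back germination genes in the aleurone. MFT belongs to the phosphatidylethanolamine-binding protein family, together with the flowering regulators FT and TFL1. In wheat, MFT on chromosome 3A is known as a gene of seed dormancy and pre-harvest sprouting resistance, studied mostly in the embryo.

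An FPKM value is a fragment count scaled for the length of the gene and for the total of the library. The whole numbers of fragments behind them could be recovered, and the libraries held between 13959933 and 21766392 fragments on genes. The inner libraries were the less alike. Over the genes tested, the Pearson correlation of log2 values between IE replicates 2 and 3 was 0.860, that between IE replicate 2 and RE replicate 2 was 0.915, and that between RE replicates 2 and 3 was 0.951. Of the IE libraries, replicate 3 had the lowest such correlations with RE libraries 1, 2 and 3, at 0.850, 0.867 and 0.842. It also had the fewest fragments, 13959933, and the fewest genes above 0, 68296. No value above 0 was shared between any libraries, so none was deposited in duplicate. The gliadin gene TraesCSU01G153800, a storage protein gene of the starchy endosperm, was expressed in all libraries. Its means were 42.3 ± 9.51 FPKM over the IE libraries and 23.6 ± 2.26 FPKM over the RE libraries (SD, n = 3 each). The paper names this gene as upregulated in IE under high nitrogen, on samples that can include these. Its direction is therefore not an independent check of the tissue. No defining marker of the aleurone could be named from the sources used here, so the aleurone content of RE was not checked.

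VP1 was transcribed in both regions from all 3 genomes. The summed FPKM of the 3 homoeologs was 22.2, 60.6 and 20.5 in IE libraries 1, 2 and 3. In RE libraries 1, 2 and 3 it was 29.4, 44.3 and 48.4. IE replicate 2 was thus the highest of all libraries and the other IE libraries were the lowest, so that the regions overlapped through IE replicate 2. The IE libraries averaged 34.5 ± 22.7 FPKM and the RE libraries 40.7 ± 10.02 FPKM (SD, n = 3 each). On the log2 scale RE exceeded IE by 0.40, less than the replicates differed among themselves (exact permutation test, two-sided, p = 0.5, with 0.1 the smallest p possible in this design). Without IE replicate 2 the difference was 0.90 and the regions did not overlap (exact permutation p = 0.2, the smallest that 2 against 3 libraries allow). That library was picked out for its own values, so this describes its weight and is not a further test. How fragments that match several homoeologs were counted is not given in the sources used here. The recovered counts cannot show it, since the lengths were chosen to make them whole numbers. As bulk tissue was sequenced, fewer cells expressing a gene and less RNA per cell cannot be told apart.

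VP1-3A had the highest mean FPKM of the homoeologs and was above VP1-3D in 5 of 6 libraries, with 8.75, 25.0 and 9.58 FPKM in IE libraries 1, 2 and 3. RE libraries 1, 2 and 3 had 9.86, 17.5 and 18.9 FPKM. RE replicate 1 lay close to the pair of low IE libraries. Its log2 fold change, RE relative to IE on log2(FPKM + 0.1), was 0.21 ± 0.44 (SE; adjusted p = 0.902 from limma). The 95% interval ran from -0.81 to 1.23, which includes an excess in RE of more than 2-fold.

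VP1-3B had the lowest FPKM of the homoeologs in every RE library, at 8.15, 12.7 and 11.9 FPKM in RE libraries 1, 2 and 3. In IE libraries 1, 2 and 3 it was at 6.22, 19.3 and 5.89 FPKM. The log2 fold change was 0.26 ± 0.46 (SE; adjusted p = 0.881 from limma). As for VP1-3A, IE replicate 2 stood above every RE library and the other IE libraries stood below them.

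VP1-3D had the largest difference among the homoeologs. IE libraries 1, 2 and 3 had 7.25, 16.3 and 5.05 FPKM, and RE libraries 1, 2 and 3 had 11.4, 14.1 and 17.7 FPKM. Here RE replicate 3 was the highest library and IE replicate 2 came next. The log2 fold change was 0.74 ± 0.42 (SE; adjusted p = 0.592 from limma), with a 95% interval from -0.23 to 1.71. It stood at percentile 90.0 of the log2 fold changes of all 51830 genes tested, whose median was 0.12.

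MFT-3A went the other way. IE libraries 1, 2 and 3 had 7.42, 27.2 and 14.8 FPKM, whereas RE libraries 1, 2 and 3 had 4.36, 7.18 and 8.41 FPKM. IE replicates 2 and 3 were above every RE library, while IE replicate 1 lay between RE replicates 2 and 3, so the regions overlapped. The IE libraries averaged 16.5 ± 10.01 FPKM and the RE libraries 6.65 ± 2.08 FPKM (SD, n = 3 each), so the mean was 2.48-fold higher in IE. The log2 fold change, RE relative to IE, was -1.16 ± 0.47 (SE, 95% interval from -2.25 to -0.064), at percentile 2.60 of all genes tested. Its unadjusted p was 0.0406 and its limma adjusted p was 0.477, so the difference did not pass the adjustment over all genes. The unadjusted p rose to 0.0568 with eBayes without trend, and to 0.108, 0.0743, 0.135 and 0.0692 when IE replicate 2, IE replicate 3, RE replicate 1 or RE replicate 2 was left out. The two-sided exact permutation test of the FPKM values gave p = 0.2.

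**Figure D1:**
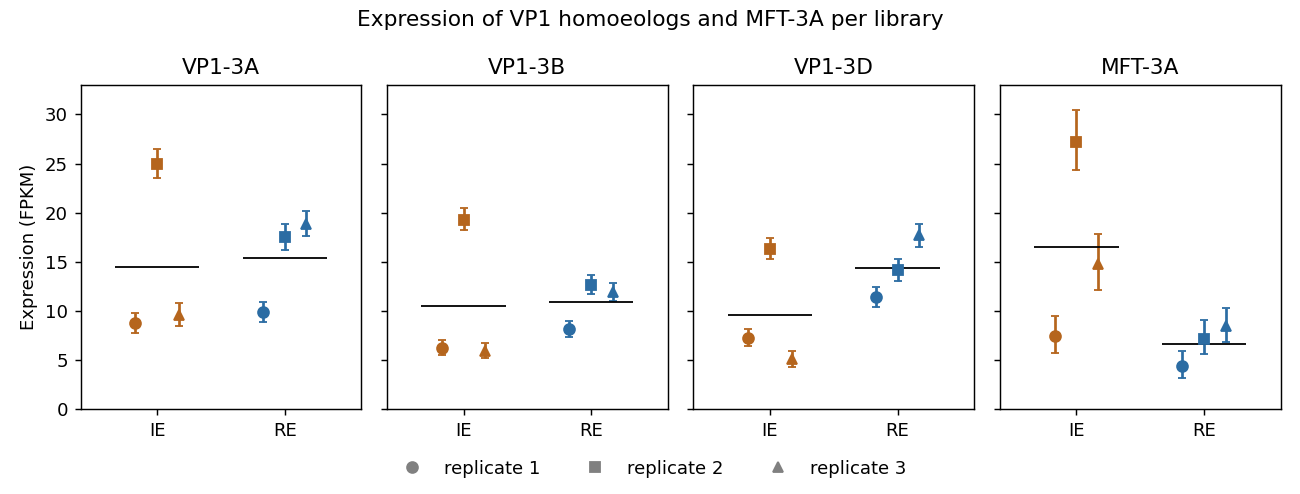
Expression in FPKM (vertical axis) of VP1-3A, VP1-3B, VP1-3D and MFT-3A in the 3 IE and 3 RE libraries. Symbols mark the replicate numbers, bars are 95% Poisson intervals of the fragment count and horizontal lines are group means. IE replicate 2 is the highest IE library for every gene, and for MFT-3A the RE libraries lie between 4.36 and 8.41 FPKM.

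No member was called at an adjusted p of at most 0.05 with a change of at least 2-fold, as was also true of all other genes (0% of those tested). With the unadjusted p in its place, 1 of the 4 members passed, MFT-3A on the IE side, against 5.75% of all genes tested in either direction, 1.64% on the IE side and 4.11% on the RE side. Of the 16 alternatives of the fit, 5 lost that pass of MFT-3A, 4 of them by leaving out 1 library. In 0 of the 4 members were the regions fully apart, against 16.3% of all genes tested.

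The fragment counts behind the values differed between the genes. The VP1 homoeologs rested on 168 to 1175 fragments per library. MFT-3A, whose recovered length is 528 bases against 2079, 2797 and 2381 bases for VP1-3A, VP1-3B and VP1-3D, rested on 41 to 313. For its lowest library, RE replicate 1 with 41 fragments, the exact 95% Poisson interval ran from 3.13 to 5.92 FPKM. The interval of IE replicate 2 ran from 24.3 to 30.4 FPKM, so the gap between the IE libraries was wider than counting error. Such intervals cover counting error only.

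IE replicate 2 was the library that decided most of these values. Relative to the mean of the other IE libraries on the log2 scale, it was higher by 1.44 for VP1-3A, 1.66 for VP1-3B, 1.42 for VP1-3D and 1.37 for MFT-3A. Over all genes tested the median of that excess was 0.23, and the 4 members stood between percentiles 88.0 and 92.7. It was singled out from the members' own values, and its share in the results was measured by leaving it out. The log2 fold changes, RE relative to IE, then became 0.69 for VP1-3A, 0.81 for VP1-3B and 1.21 for VP1-3D, with limma adjusted p-values of 0.291, 0.148 and 0.0767. VP1-3D then passed the unadjusted p (0.00236) with a 2-fold change, as did 8.36% of all genes on the RE side and 10.1% in either direction. For MFT-3A the value became -0.70 (limma adjusted p = 0.391). Without this library, every RE library lay above both remaining IE libraries for each VP1 homoeolog, as it did for 27.1% of all genes tested. This separation follows from the choice of library, the only IE library to overlap RE for these genes. The p-values without it carry the same choice and are not a further test. IE replicate 2 also had the highest fragment total, 21766392, whose part in these values was not tested.

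RE replicate 1 was the low library of its region for all 4 members. It was below the mean of the other RE libraries by factors from 0.545 (VP1-3A) to 0.722 (VP1-3D), with 0.566 for MFT-3A and 0.666 for VP1-3B, where the median over all genes tested was 0.921. The spread within RE was nonetheless narrower than within IE. The highest library exceeded the lowest by 1.55 to 1.93 times in RE and by 2.86 to 3.67 times in IE.

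**Figure D2:**
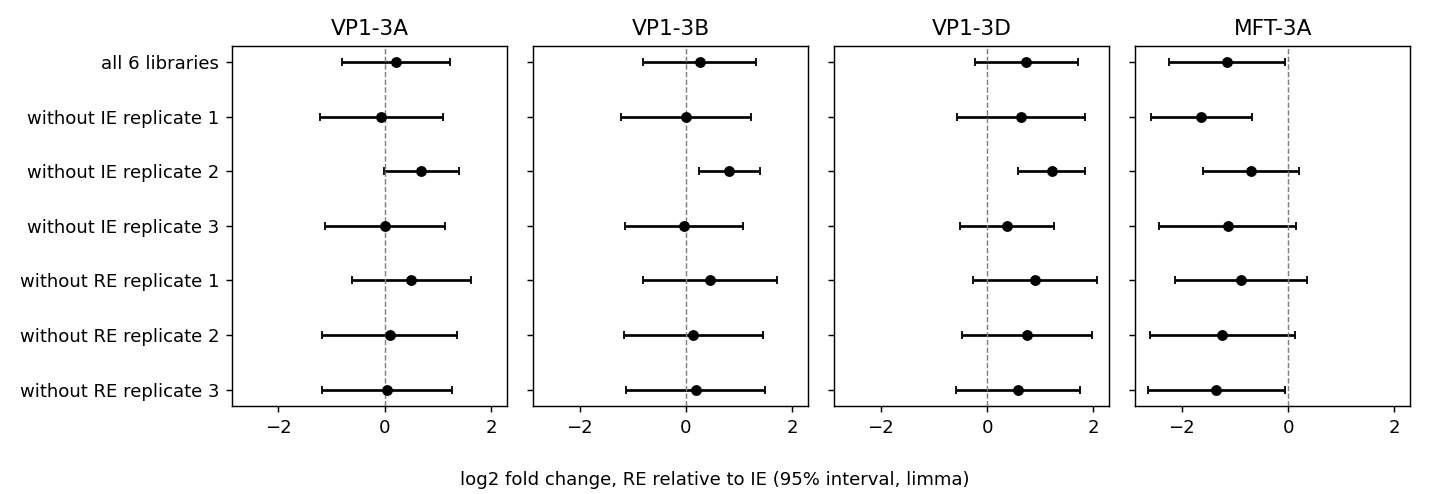
Log2 fold change of each gene, RE relative to IE (horizontal axis, limma on log2(FPKM + 0.1), bars are 95% intervals), with all 6 libraries and with each library left out in turn. Values for VP1 sit near 0 or above it and rise when IE replicate 2 is left out, while those for MFT-3A stay between -1.63 and -0.70.

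The ratio of MFT-3A to VP1 separated the regions although neither gene did so alone. This ratio is taken within a library and does not depend on how the libraries are scaled. The FPKM of MFT-3A was 0.334, 0.449 and 0.721 times the summed FPKM of VP1 in IE libraries 1, 2 and 3. In RE libraries 1, 2 and 3 it was 0.148, 0.162 and 0.174 times. Every IE library thus lay above every RE library, and the RE libraries lay close together. The mean ratio was 0.501 ± 0.198 over the IE libraries and 0.161 ± 0.0127 over the RE libraries (SD, n = 3 each). The difference of the log2 ratios, RE relative to IE, was -1.57, which is a ratio 2.96-fold higher in IE (exact permutation test, two-sided, p = 0.1, which is the lowest p open to this design). The background was 6.21%, the part of all genes tested whose ratio to summed VP1 was higher in every IE library. IE replicate 2 weighed little on this value, which was -1.61 without it.

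The same separation was seen against each homoeolog. The ratio of MFT-3A to VP1-3A lay between 0.848 and 1.54 in IE and between 0.410 and 0.446 in RE. Against VP1-3B it lay between 1.194 and 2.51 in IE and between 0.535 and 0.707 in RE. Against VP1-3D it lay between 1.02 and 2.93 in IE and between 0.383 and 0.508 in RE. These ratios share the values of MFT-3A and are not independent of each other. The share of all genes that separate in this way was taken for summed VP1 only. The ratios to single homoeologs therefore have no background of their own.

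**Figure D3:**
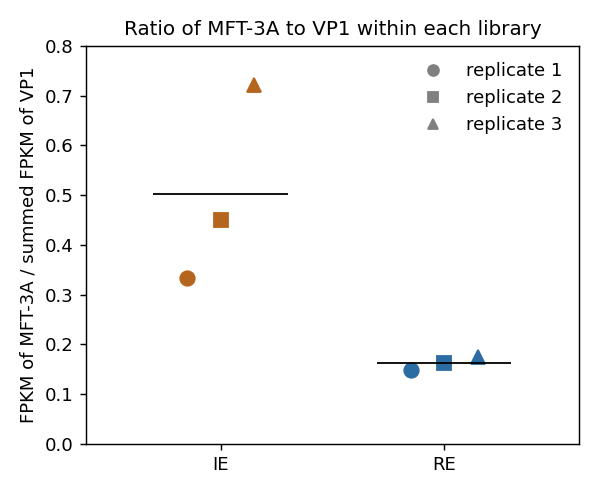
FPKM of MFT-3A divided by the summed FPKM of the VP1 homoeologs (vertical axis) in each library of IE and RE, with lines at the group means. The IE libraries lie between 0.334 and 0.721 and the RE libraries between 0.148 and 0.174.

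The order of the 4 genes by level per length differed between the regions. Averaged over all 6 libraries it was VP1-3A at 14.9 FPKM, VP1-3D at 11.97 FPKM, MFT-3A at 11.6 FPKM and VP1-3B at 10.7 FPKM. In FPKM, VP1-3A exceeded VP1-3B in 6 of 6 libraries, by 1.21 to 1.63 times. That order depends on the recovered lengths. In fragments not divided by length, VP1-3B exceeded VP1-3A in IE replicate 2 (1175 against 1131) and RE replicate 1 (406 against 365). The FPKM of VP1-3A exceeded that of VP1-3D in 5 of 6 libraries, the exception being RE replicate 1. VP1-3A and VP1-3D are thus not separated beyond their spread. MFT-3A was above VP1-3B and VP1-3D in 3 of 3 IE libraries and below all 3 homoeologs in 3 of 3 RE libraries. All members were well expressed, and their levels lay between percentiles 80.1 and 95.8 of the genes above 0 in the same library.

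The balance of the genomes in VP1 was uneven to a modest degree in FPKM, which depends on the recovered lengths. As a share of fragments, not divided by length, VP1-3A took from 29.1% (RE replicate 1) to 41.1% (IE replicate 3). VP1-3A took 39.4%, 41.2% and 46.7% of the summed VP1 FPKM in IE libraries 1, 2 and 3, and 33.5%, 39.5% and 38.9% in RE libraries 1, 2 and 3. VP1-3D took 32.6%, 26.9% and 24.6% in IE and 38.7%, 31.9% and 36.5% in RE, in the same order of replicates. VP1-3B had the smallest range, from 24.6% to 31.8% over all libraries. The mean share of VP1-3D was 28.1 ± 4.13% over the IE libraries and 35.7 ± 3.49% over the RE libraries (SD, n = 3 each), a difference of 7.64 percentage points. IE replicate 1 overlapped RE replicate 2 for this share. For each of the 3 shares the two-sided exact permutation test gave p = 0.2 and the adjusted p over the 3 tests was 0.2, so no shift in the balance was established. The shares add up to the whole and are not independent.

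**Figure D4:**
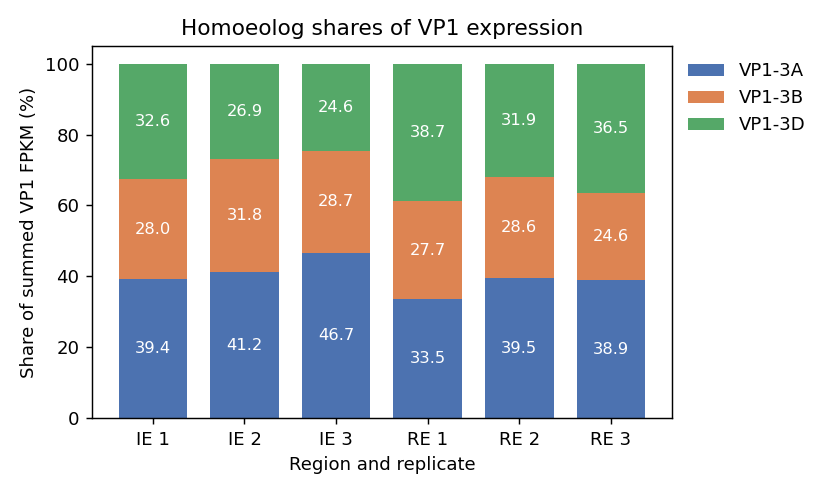
Share of each homoeolog in the summed FPKM of VP1 (vertical axis, percent) for the 3 IE and 3 RE libraries. VP1-3D takes 24.6% to 32.6% in IE and 31.9% to 38.7% in RE, and VP1-3A takes 39.4% to 46.7% and 33.5% to 39.5%.

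The chromosomal neighbours of the members were taken as the 5 identifiers on each side of each member, since identifiers of the annotation run along the chromosome. Of these 40 genes, 34 were above 0 in at least 1 library and 24 passed the filter. Of the 24, 0 passed the limma adjusted p and 3 passed the unadjusted p with a 2-fold change. All 3 were on the RE side, where 4.11% of all genes tested passed (5.75% in either direction). These 3 hold the same place before the 3 VP1 homoeologs, so they need not be independent of each other. RE was above IE in the fitted value of 15 genes (62.5%, against 61.5% of all genes tested) and below it in 9, with a median log2 fold change of 0.20 against 0.12 over all genes tested.

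The genes with the largest differences were the ones directly before VP1 in identifier order. TraesCS3D01G412700, next to VP1-3D, had 1.59, 4.004 and 0.524 FPKM in IE libraries 1, 2 and 3, while RE libraries 1, 2 and 3 had 11.6, 6.98 and 12.8 FPKM. Its fitted log2 fold change was 2.65 ± 0.63 (SE; unadjusted p = 0.00313 from limma). TraesCS3A01G417200, next to VP1-3A, had 6.44, 10.9 and 1.62 FPKM in IE against 27.0, 23.8 and 31.9 FPKM in RE, with a fitted log2 fold change of 2.46 ± 0.61 (SE). The gene in the same place beside VP1-3B, TraesCS3B01G452100, was singled out after its values were seen and had a log2 fold change of 2.08 ± 0.65 (SE). For all 3 genes every RE library was above every IE library, as for 11.9% of all genes tested, whereas the VP1 homoeolog beside each of them overlapped between the regions. The sources used here give these genes no name.

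Around MFT-3A fewer genes were expressed. Only 5 of its 10 neighbours were above 0 in any library. Of the 5 neighbours that follow MFT-3A, 4 were listed at 0 in all libraries and TraesCS3A01G006900 had a value in IE replicate 2 only. The 4 neighbours tested had log2 fold changes between -0.31 and 0.38, and none had the regions apart.

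**Figure D5:**
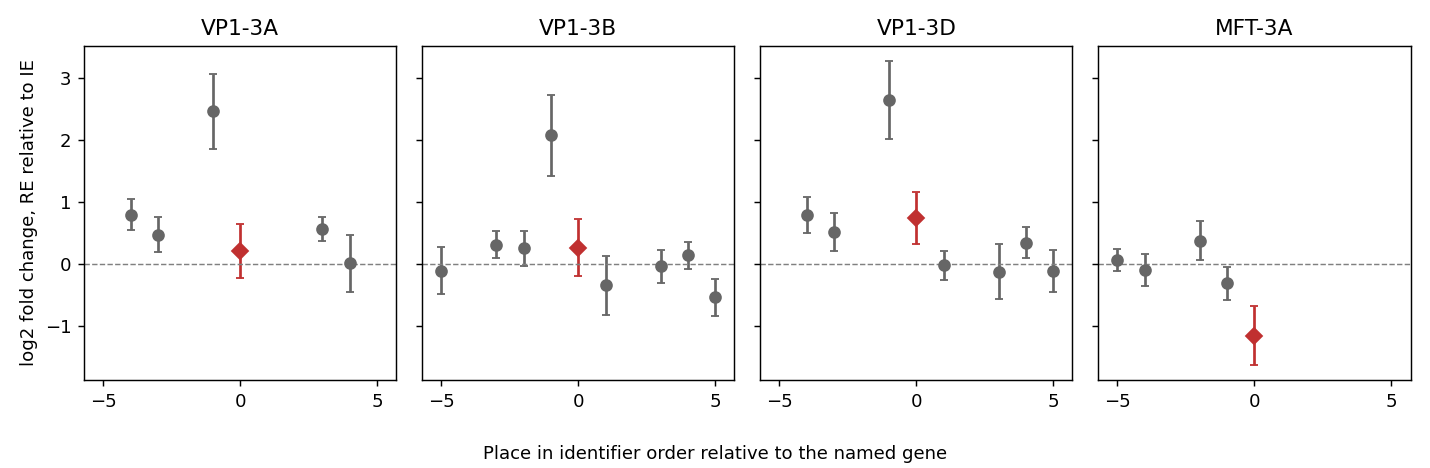
Log2 fold change, RE relative to IE (vertical axis, bars are standard errors), of each named gene (red diamond) and of those of its 10 neighbours that passed the filter (grey circles), by place in identifier order. The gene directly before each VP1 homoeolog stands at 2.46, 2.08 and 2.65, and the 4 neighbours of MFT-3A lie between -0.31 and 0.38.

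VP1-type factors are known to act together with bZIP factors on seed storage genes such as globulins, so the globulin and bZIP genes that the paper names were set beside the members. The sources used here do not name these bZIP genes as partners of VP1, and such a link was not tested. The study picked all but TraesCS6D01G312800 for a difference between these regions, so their directions are not independent evidence. For TraesCS6D01G312800 the paper describes high expression in RE under high nitrogen, while the nitrogen supply of the libraries used here is not given. The globulin gene TraesCS4D01G171800 had 159.6, 403 and 186 FPKM in IE libraries 1, 2 and 3 against 356, 372 and 547 FPKM in RE libraries 1, 2 and 3. It was high in IE replicate 2 like the VP1 genes, with a log2 fold change of 0.87 ± 0.38 (SE; adjusted p = 0.509 from limma). The globulin gene TraesCS7D01G351300 stayed at or below 6.63 FPKM, with a log2 fold change of 0.77 ± 0.76 (SE; adjusted p = 0.772 from limma). The bZIP genes had values of the opposite sign. TraesCS6D01G312800 had 17.1, 7.85 and 15.3 FPKM in IE libraries 1, 2 and 3 against 7.83, 5.55 and 7.98 FPKM in RE. This is a log2 fold change of -0.85 ± 0.33 (SE; adjusted p = 0.457 from limma). In IE, replicate 2 was the lowest library for all 3 bZIP genes and for the gliadin gene, and the highest for all 4 dormancy genes and both globulin genes. TraesCS7D01G475100 had the largest difference of the list, at -1.90, followed by TraesCS7B01G391800 at -1.72, and for both every IE library was above every RE library, as for 4.35% of all genes tested. Over the 5 genes the median was -0.85, 0 passed the adjusted p from limma and 2 passed the unadjusted p with a 2-fold change, both on the IE side, where 1.64% of all genes tested passed (5.75% in either direction).

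The genes most like the members were sought by the root mean square distance between log2 profiles, each centred on its mean over the 6 libraries. Closest to summed VP1 was TraesCS7A01G128800, at a distance of 0.059 on the log2 scale, with 138, 378 and 129 FPKM in IE libraries 1, 2 and 3 and 177, 246 and 294 FPKM in RE libraries 1, 2 and 3. TraesCS6A01G218800 came next, at 0.062. The 3 homoeologs lay at 0.14 (VP1-3A), 0.11 (VP1-3B) and 0.23 (VP1-3D) from their own sum, while MFT-3A lay at 0.84. Closest to MFT-3A was TraesCS3D01G231700, at 0.092, followed by TraesCS3D01G375800, at 0.11. The former was at 0.908, 3.78 and 1.91 FPKM in IE and 0.4999, 0.782 and 1.17 FPKM in RE. Of the 51830 genes tested, 1108 lay within 0.25 of VP1 and 50 within 0.25 of MFT-3A. With only 6 libraries, profiles can be close without a link between the genes.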

How the data were processed

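Endosperm RNA of 6 libraries, 3 from IE and 3 from RE, was analysed. The authors cleaned reads with fastp and placed them on the Chinese Spring genome with HISAT2. The table they deposited holds FPKM values, 1 column per library. The counting tool and its use of strand are not given in the sources used here. FPKM does not remove shifts in composition, in which abundant genes lower the others. Since low values fall on evenly spaced steps, whole fragments (within 0.01) were recovered for 100% of the 86042 genes above 0. The smallest length giving whole numbers was taken, so for genes with few fragments the length and counts can be too small. The recovered fragments summed to 99.4% (RE replicate 1) to 99.5% (IE replicate 2) of the library totals. At the library totals, 3 fragments on a gene of 1 kb are 0.138 to 0.215 FPKM.

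RE and IE were compared on log2(FPKM + 0.1) by the moderated linear model of limma 3.58.1 under R 4.3.3 (lmFit, eBayes with trend). Genes averaging 0.5 FPKM or more entered (51830), and p-values were adjusted over all of them by Benjamini and Hochberg. Calls needed an adjusted p up to 0.05 together with a 2-fold change. Sums, shares and ratios were compared by exact permutation tests (scipy 1.17.1, Python 3.11.15). Recovery and limma were tested on simulated data. The changes simulated for limma were larger than those of the members, so that test does not measure the power to call the members. The methods call the replicates biological but the labels name no plots, so p-values measure the spread between these libraries, which may be partly technical. Alternatives changed the pseudocount, filter, scaling, trend and replicate block, used voom on the recovered fragments, or left out each library.

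The members and lists were chosen with earlier results of these data known. The 4 members were always named, with the 2 largest changes of each list and the 2 genes closest to VP1 and to MFT-3A in profile. None of the 4 identifiers matched the RefSeq table at hand (0 matches), so no coordinates or sequences are given.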

Additional observations from a re-analysis of the deposited data

How the results depend on the processing

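The number of genes called was 0 under the 16 alternatives that keep the adjusted p, each fitted with limma, and 2980 with the unadjusted p; the smallest adjusted p over all genes lay between 0.0566 and 0.628. VP1-3A turned to -0.062 without IE replicate 1 and VP1-3B to -0.033 without IE replicate 3, both near 0. With each library left out, the log2 fold changes, RE relative to IE, ranged from -0.062 to 0.69 for VP1-3A, from -0.033 to 0.81 for VP1-3B, from 0.38 to 1.21 for VP1-3D and from -1.63 to -0.70 for MFT-3A. The summed VP1 ranged from 0.12 to 0.90, and the log2 ratio of MFT-3A to VP1 from -1.82 to -1.27. The shares of VP1-3A, VP1-3B and VP1-3D, RE minus IE, ranged from -6.63 to -2.98, from -3.36 to -1.35 and from 5.92 to 9.93 percentage points. Median-ratio scaling moved the median of all genes from 0.12 to -0.0051 and gave 0.086, 0.14, 0.62 and -1.28 for VP1-3A, VP1-3B, VP1-3D and MFT-3A. It moved the split of genes passing the unadjusted p with a 2-fold change from 2130 higher in RE and 850 higher in IE to 1883 and 1333. With a pseudocount of 1, 1437 genes passed that rule, without a filter 4821, and without IE replicate 2 5161. Deviations of same-numbered libraries correlated at 0.11, 0.059 and -0.20 for numbers 1, 2 and 3, within the range of differently numbered ones (-0.24 to 0.25). With 3 libraries per region, such correlations cannot decide whether the libraries are paired. Both regions were cut from the same grain section, but the labels state no pairs, so the numbers were not taken as pairs. MFT-3A was higher in IE under all 3 numbers, as were 11.2% of all genes tested. With the replicate block, 0 genes were called and the unadjusted p of MFT-3A was 0.00894 (limma adjusted p = 0.366). Over the 16 alternatives its unadjusted p lay between 0.00510 and 0.135 and its limma adjusted p between 0.366 and 0.901, and 5 alternatives lost the unadjusted p with a 2-fold change. At 41 fragments in its lowest library, MFT-3A is the gene most limited by depth.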
